A study of Homo sapiens with 58 samples.

Results

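The 12 input libraries of 3 engineered human liver cancer lines were compared before any capture of biotinylated material. All 3 lines derive from Huh-7.5, a hepatocellular carcinoma line, and each expresses the peroxidase APEX in one form. In the APEX-NLS line (called NLS here) it carries a nuclear localisation signal, in the APEX-NES line (NES) a nuclear export signal, and in the APEX-G3BP1 line (G3BP) it is fused to G3BP1, a stress granule scaffold protein. Members were chosen from the library names as the input columns of the library sets JL0388 and JL1024, which gave 12 of the 58 libraries of the series, 4 per line. Another 5 inputs of the G3BP line belong to a set in which the other lines have none, and they entered no test. In each line 1 treatment was mock and the other sodium arsenite (0.5 mM, 45 min), an oxidative stress that stops most translation. All 12 libraries come from cells that went through the labelling reaction: biotin phenol, then hydrogen peroxide, then crosslinking with UV light. RNA bound to the RNA-binding protein HuR was immunoprecipitated with the antibody 3A2, so an input holds the HuR-bound RNA of the whole cell. Each line, treatment and set is 1 library, and the 4 combinations of set and treatment are the strata within which lines were compared. Labels of the JL1024 inputs end in "All", which is not explained. Promoters of the transgenes, and whether a line is 1 clone or a pool, are not given in the sources used here. Nothing in the labels says that libraries came from separate cultures, so p-values measure the spread between these libraries.

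HuR, encoded by ELAVL1, binds U-rich and AU-rich stretches of RNA, mostly in introns and 3′UTRs, and is known to stabilise messages. It is largely nuclear and moves in part to the cytoplasm under stress. Proximity labelling with APEX marks molecules near the enzyme, and captured libraries are read against inputs. The inputs address whether lines that carry different APEX fusions hold the same HuR-bound RNA at the start. A gene's value here is the sum of tags (sequenced fragments) in its listed peaks per 1000000 tags of the library total (CPM), and depends on how much of the RNA a cell holds, how much HuR it binds, and how many cells were sampled. Less RNA per cell, fewer cells that hold it and less binding per molecule cannot be told apart.

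Depth set what could be compared. In JL0388 the 6 libraries held 82080 to 484305 tags in listed peaks, which was 18.8 to 21.1% of each library total. In JL1024 the NLS line held 234432 mock and 160442 arsenite tags in peaks, the NES line 11023 and 11110, and the G3BP line 1353 and 21506. Those were 6.02 to 11.9% of the library totals. The library with the most tags in peaks had 358 times those of the lowest, the G3BP mock input of JL1024, in which 1 tag is worth 44.5 CPM. The share of tags that lay in peaks did not pass the test between lines (means of 14.6 ± 6.56%, 14.4 ± 6.12% and 14.3 ± 6.67% in NLS, NES and G3BP, SD, n = 4; exact permutation test of line labels within the strata, two-sided, p = 0.75).

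**Figure D1:**
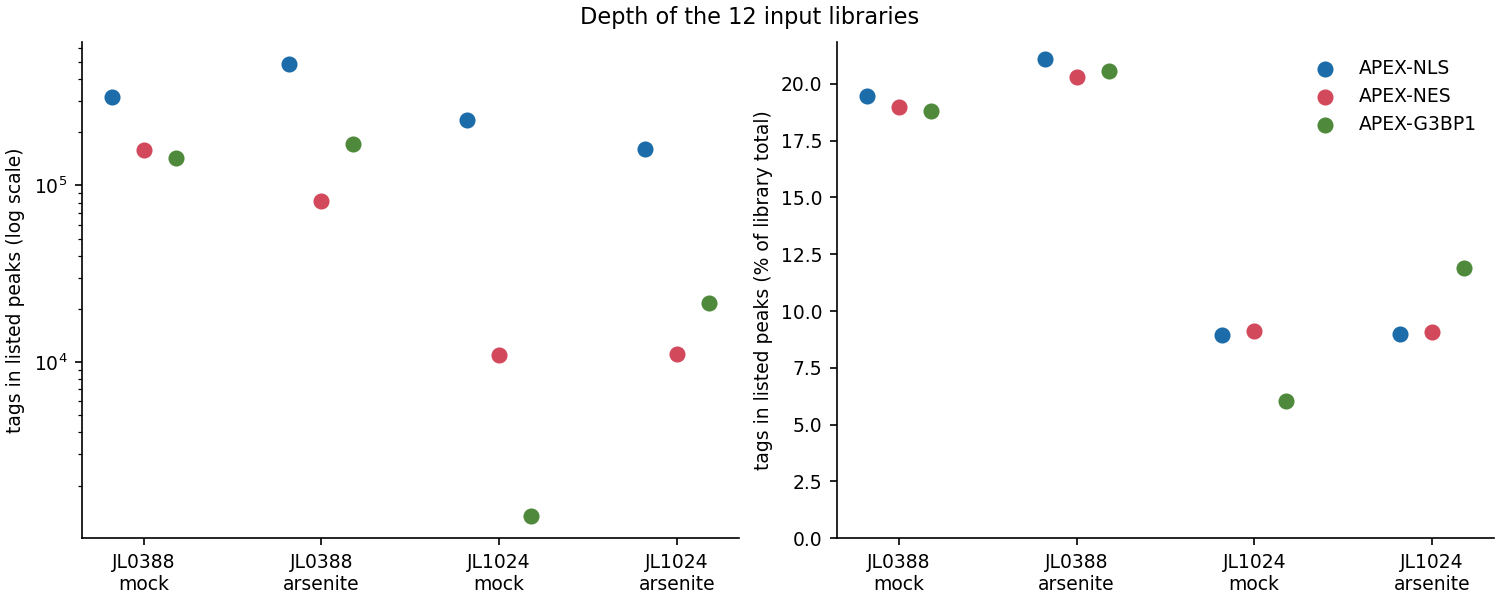
Tags in listed peaks on a log scale (left) and as a percentage of the library total (right) for the 12 input libraries, by library set and treatment on the horizontal axis; each point is 1 library and colours are lines. The JL0388 libraries lie between 18.8 and 21.1%, and in JL1024 the NES and G3BP inputs are far below the NLS inputs on the left axis.

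The fusion partner and the precipitated protein were read first. G3BP1 was counted at 58.8 CPM in the G3BP mock input of JL0388, 69.5 in NES and 82.8 in NLS. With arsenite the values were 132, 96.5 and 121. The lines overlapped, and the G3BP line was lowest with mock treatment and highest with arsenite. G3BP minus NES was 0.10 ± 0.18 on the log2 scale (SE, limma adjusted p = 0.847). This does not check the label, because the listed G3BP1 peaks lie in its 3′UTR (86.3% of its JL0388 tags) and introns, parts that a coding transgene need not carry. ELAVL1 gave 27.4, 32.4 and 38.9 CPM in the mock inputs of G3BP, NES and NLS, and 45.8, 29.7 and 45.3 with arsenite. No pair of lines passed for ELAVL1 in JL0388 (limma adjusted p = 0.545 to 0.879). In JL1024 G3BP1 was at 12.2 and 28.6 in NLS, 24.8 and 48.9 in NES and 44.5 and 49.8 in G3BP, where the mock value of G3BP is 1 tag.

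Over both sets, almost no gene passed the test between lines. With limma on log2 values, library set and treatment as covariates and 5883 genes tested, 0 genes passed an adjusted p of 0.05 for NLS against NES (0%), although 316 had an unadjusted p below 0.05; edgeR's quasi-likelihood test on the whole tags called 16. For G3BP against NES 1 gene passed (0.017%; edgeR 6), and for G3BP against NLS 1 gene (0.017%; edgeR 57, of which 55 were lower in G3BP). These counts have little reach: of 200 genes changed 4-fold in simulated data for G3BP against NES, limma called 4 and edgeR 52, and of 200 changed 2-fold both called 0. Sums over 3′UTR peaks alone gave 0 of 2431 genes for any line difference (0%, 180 with an unadjusted p below 0.05; edgeR 1), and sums over intron peaks gave 1 of 3577 (0.028%), ANO3 (limma adjusted p = 0.0094).

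The gene called for G3BP against NES was RMST, a long non-coding RNA known from neural differentiation, on chromosome 12 (RefSeq 97462804 to 97565035, GRCh38.p14). The NES inputs of JL0388 held 99.5 CPM with mock treatment and 74.2 with arsenite. The NLS inputs held 1.85 and 2.61, and the G3BP inputs 0 and 1.21. In JL1024 the NES inputs stood at 8.27 and 8.16, which is 1 tag in each, against 0.381 and 1.12 in NLS and 0 and 0 in G3BP. The rule for named genes requires 1 direction in all 4 strata, so that NES was highest in each is part of the choice. The log2 difference G3BP minus NES was -4.27 ± 0.65 (SE, limma adjusted p = 0.0059), and NLS minus NES was -3.46 ± 0.65 without passing (limma adjusted p = 0.121), although it passed with edgeR. Because G3BP had 1 tag in JL0388, the NES to G3BP ratio there was 145.5 with a 95% counting interval of 25.6 to 5796. NES over NLS was 39.7 (20.2 to 89.0), from 113 and 9 tags. The tags were spread over 22 peaks of 20 bases, and the largest, at chr12:97482475-97482495 on the plus strand as the file gives it, held 15 of 128 tags. This call was lost without the G3BP mock or the G3BP arsenite input of JL0388 (0 genes each).

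ANO3, which encodes a membrane protein of the anoctamin family, was the gene called for G3BP against NLS (chromosome 11, RefSeq 26188808 to 26663289). NLS inputs of JL0388 held 24.1 CPM with mock and 27.4 with arsenite, NES inputs 2.40 and 7.42, and G3BP inputs 0 and 0. In JL1024 the NLS inputs were at 4.58 and 4.48, and NES and G3BP at 0 in all 4 libraries. In JL1024, where 1 tag is worth 8.16 to 8.27 CPM in NES and 5.53 to 44.5 in G3BP, those zeros cannot be told from the NLS level. In JL0388 102 NLS tags stood against 0 in G3BP. With G3BP set to a floor of 3 tags over both libraries, NLS was 13.8-fold higher. The 95% counting interval of the ratio starts lower, at 11.06. The fitted difference G3BP minus NLS was -3.31 ± 0.55 (SE, limma adjusted p = 0.0205). Introns held 85.05% of its JL0388 tags. The call was lost without either G3BP input of JL0388 and without the G3BP mock input of JL1024 (0 genes each).

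For NLS against NES, where no gene passed, the smallest unadjusted p among genes of 1 direction in all 4 strata belonged on the lower side to RMST, PDZK1P1 and BDNF-AS, and on the higher side to CCSAP, a pseudogene copy and an unnamed gene. PDZK1P1, a pseudogene of a scaffold gene, was at 9.59 and 4.95 CPM in NES of JL0388 against 3.71 and 2.18 in NLS. In JL1024 it was at 41.3 and 16.3 in NES (5 and 2 tags) against 2.67 and 1.12 in NLS. BDNF-AS, antisense to a growth factor gene, stood in JL0388 at 5.99 and 4.95 in NES and 3.09 and 2.18 in NLS. CCSAP, which encodes a centriole-associated protein, was at 7.41 and 12.6 in NLS against 1.20 and 0 in NES in JL0388. In JL1024 it was at 1.14 and 4.48 against 0 and 0. There 1 tag is worth 8.27 and 8.16 CPM in NES, so those zeros cannot be told from the NLS level. None of these passed the test over all genes.

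Within JL0388 alone, where depth was more even, more genes passed. Of 5279 genes, limma called 72 for NLS against NES (1.36%), 38 higher and 34 lower in NLS. It called 71 for G3BP against NES (1.34%), 31 higher and 40 lower in G3BP, and 43 for G3BP against NLS (0.815%), 15 higher and 28 lower. Together 134 genes were called in at least 1 pair. This fit was read on its own after the values over both sets were seen, and it rests on 2 residual degrees of freedom, so its p-values lean on the spread that limma shares across genes. edgeR called 111, 46 and 111 genes, and both methods shared 71, 41 and 43. Leaving out 1 of the 6 libraries moved the 3 counts between 30 and 341, 46 and 362, and 17 and 134; the highest of each came without the NES mock input, and the lowest without NLS arsenite, G3BP arsenite and NLS mock. NLS against NES also gave 46 without NLS mock, 134 without G3BP mock and 128 without G3BP arsenite. G3BP against NLS gave 27 without G3BP mock, 21 without NLS arsenite and 125 without NES arsenite. In simulated data for G3BP against NES in JL0388, limma called 70 of 200 genes changed 2-fold (193 of them tested) and 147 of 200 changed 4-fold (191 tested), and with each it also called 7 genes that were not changed.

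**Figure D2:**
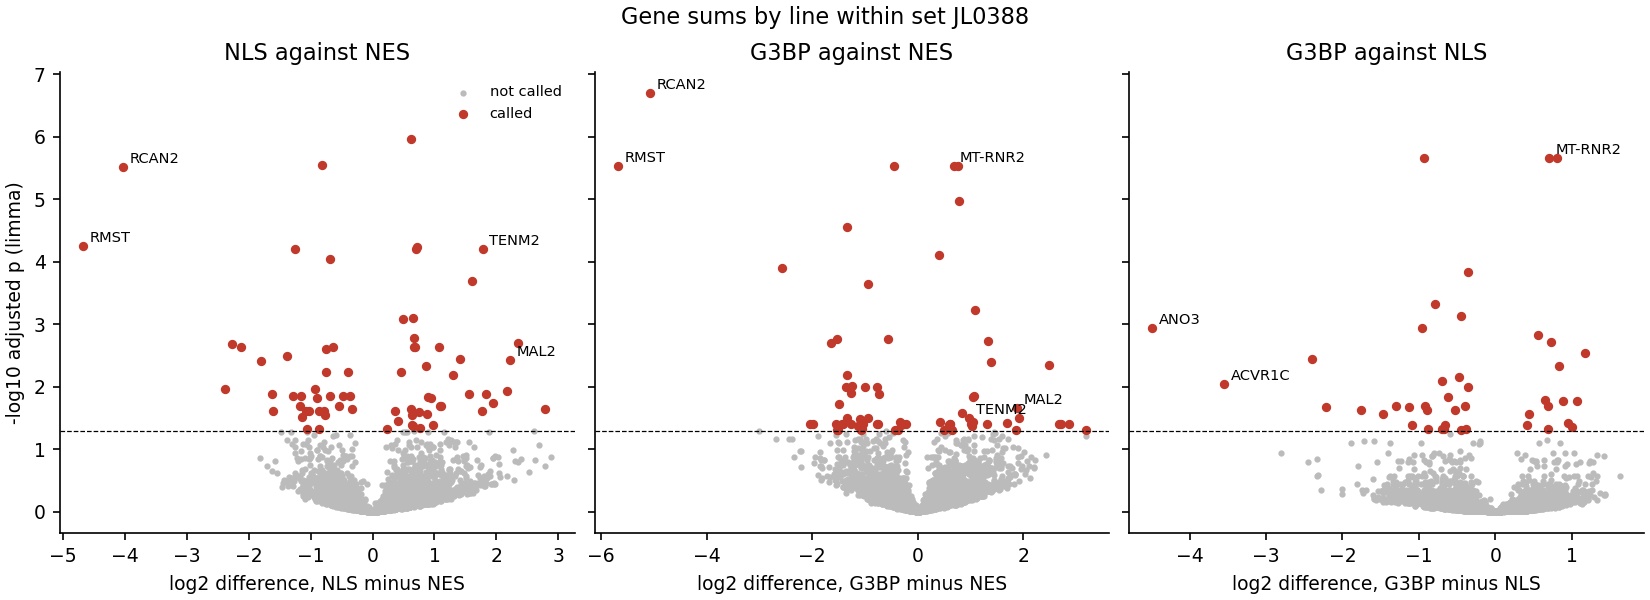
Volcano plots of the 3 pairs of lines within JL0388: horizontally the log2 difference per gene, vertically -log10 of limma's adjusted p, with the dashed line at 0.05; red points are called genes and grey points are not. RMST and RCAN2 lie farthest to the left in both comparisons with NES.

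Genes higher in the NES line of JL0388 were led by RMST and RCAN2. RCAN2, an inhibitor of the phosphatase calcineurin, was counted at 137 CPM with mock and 111 with arsenite in NES. NLS inputs held 9.26 and 4.36, and G3BP inputs 2.61 and 2.41. No NLS or G3BP library reached the NES values, and G3BP minus NES was -5.07 ± 0.37 (SE, limma adjusted p = 1.99e-07). Introns held 98.4% of its JL0388 tags. In JL1024 RCAN2 had 0 tags in both NES inputs, where the JL0388 level scaled by tags in peaks gives 14.01 expected tags. The floor that a count of 0 allows is 3 tags (two-sided 95% Poisson limit 3.69), so the NES level of JL0388 was not seen in the NES line of JL1024. For RMST 9.96 tags were expected and 2 counted (interval 0.242 to 7.22).

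Other genes were higher in NES than in NLS, at lower levels. FSTL1, a secreted glycoprotein, was at 25.2 and 19.8 in NES against 3.09 and 3.48 in NLS and 5.23 and 9.65 in G3BP. ANKRD1, a stress-responsive cofactor known from heart muscle and a target of YAP, was at 32.4 and 49.5 in NES and 6.17 and 8.71 in NLS, with G3BP at 10.4 and 38.6. NES and G3BP are not separated for ANKRD1 (G3BP minus NES -0.94 ± 0.36, limma adjusted p = 0.233), whereas NLS minus NES was -2.27 ± 0.36 (limma adjusted p = 0.00204). SLC1A3, a glutamate transporter, was at 55.1 and 37.1 in NES against 11.8 to 12.3 in NLS. STAM, an adaptor of endosomal sorting, was at 45.5 and 37.1 against 6.79 and 10.5. G3BP against NES did not pass limma for FSTL1, SLC1A3 or STAM (adjusted p = 0.132, 0.0699 and 0.151). RALYL, which encodes an RNA-binding protein of the RALY family, was at 55.1 and 94.0 in NES, 22.2 and 23.1 in NLS and 14.4 and 8.44 in G3BP. In JL1024, though, RALYL was higher in G3BP than in NES with both treatments (44.5 and 27.6 against 24.8 and 8.16; the first is 1 tag). The 5S ribosomal RNA copy RNA5S4 was also higher in NES (73.1 and 96.5 against 23.5 and 28.9 in G3BP). Copies of this gene are nearly identical, so the assignment of its tags is uncertain.

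Several genes were lower in NES than in both other lines. MAL2, a membrane trafficking protein of hepatocytes and other polarised cells, was at 2.40 and 7.42 in NES, 19.1 and 32.2 in NLS and 18.3 and 20.5 in G3BP. No NES library overlapped the other lines. The G3BP minus NES difference of 1.88 ± 0.39 passed limma (adjusted p = 0.0217) but not edgeR (adjusted p = 0.0816). DBT, a subunit of the branched-chain keto acid dehydrogenase, was at 1.20 and 0 in NES, 11.1 and 10.0 in NLS and 11.8 and 8.44 in G3BP. LNC-LBCS, a long non-coding RNA, was at 8.39 and 2.47 in NES, 20.4 and 23.1 in NLS and 22.2 and 20.5 in G3BP. For DBT and LNC-LBCS both tools called NLS against NES, but G3BP against NES passed limma (adjusted p = 0.0386 and 0.0309) and not edgeR (adjusted p = 0.084 and 0.127). The remaining genes that the naming rule gives on the G3BP side were PIK3C2G, a lipid kinase, UBE4A, a ubiquitin ligase, and PCOLCE2, a collagen processing enhancer. PIK3C2G was at 7.84 and 12.1 in G3BP against 0 and 0 in NES. With NES set to the floor of 3 tags, G3BP was 4.14-fold higher. The 95% counting interval of that ratio starts lower, at 2.996. Neither UBE4A nor PCOLCE2 passed edgeR (adjusted p = 0.142 and 0.156).

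Genes higher in NLS included receptors, a channel and an adhesion protein. TENM2, a cell adhesion protein known from synapses, was at 95.1 and 105 in NLS, 58.8 and 55.5 in G3BP and 32.4 and 24.7 in NES. The lines did not overlap in JL0388, and NLS minus NES was 1.78 ± 0.21 (SE, limma adjusted p = 6.28e-05). RORA, a nuclear receptor active in lipid and clock regulation, was at 43.8 and 33.1 in NLS, 7.19 and 14.8 in NES and 6.53 and 6.03 in G3BP. ACVR1C, a receptor of the activin and nodal ligands, was read in its 3′UTR (80.9% of tags) and was at 24.1 and 37.9 in NLS, 5.99 and 2.47 in NES and 0 and 4.82 in G3BP. KCNH7, a potassium channel, was at 43.8 and 42.7 in NLS, 15.6 and 12.4 in NES and 18.3 and 12.1 in G3BP. INSIG1, which holds the cholesterol sensor complex in the endoplasmic reticulum, was at 14.8 and 37.5 in NLS and 2.40 and 12.4 in NES. G3BP lay between them with mock and close to NLS with arsenite (9.15 and 35.0).

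The G3BP line differed from NLS by genes that were lower in it and by smaller rises. IGF1R, the receptor of insulin-like growth factor 1, was at 20.9 and 26.5 in G3BP against 50.02 and 56.2 in NLS and 51.5 and 64.3 in NES. HS3ST5, a heparan sulfate sulfotransferase, was at 5.23 and 9.65 in G3BP, 32.1 and 22.6 in NLS and 22.8 and 22.3 in NES. EPHA5, an ephrin receptor, was at 15.7 and 21.7 against 45.1 and 49.2 in NLS, and TTC23, a ciliary protein, at 5.23 and 1.21 against 18.5 and 15.7. Of the genes higher in G3BP than in NLS, BICC1, an RNA-binding protein, was at 102 and 90.5 against 40.1 and 44.0, with NES at 75.5 and 84.1. GPC6, a cell surface proteoglycan with 1043 listed peaks, was at 630 and 528 in G3BP, 577 and 584 in NES and 337 and 319 in NLS. NES and G3BP overlapped for GPC6 (-0.01 ± 0.07, limma adjusted p = 0.976), and G3BP minus NLS was 0.81 ± 0.07 (limma adjusted p = 2.21e-06). DIAPH3, an actin nucleator, MID1, a microtubule-associated ubiquitin ligase, GLIS3, a transcription factor, and MIR548XHG, a microRNA host were also higher in G3BP than in NLS, by 0.72 (MIR548XHG) to 1.01 (MID1) on the log2 scale.

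**Figure D3:**
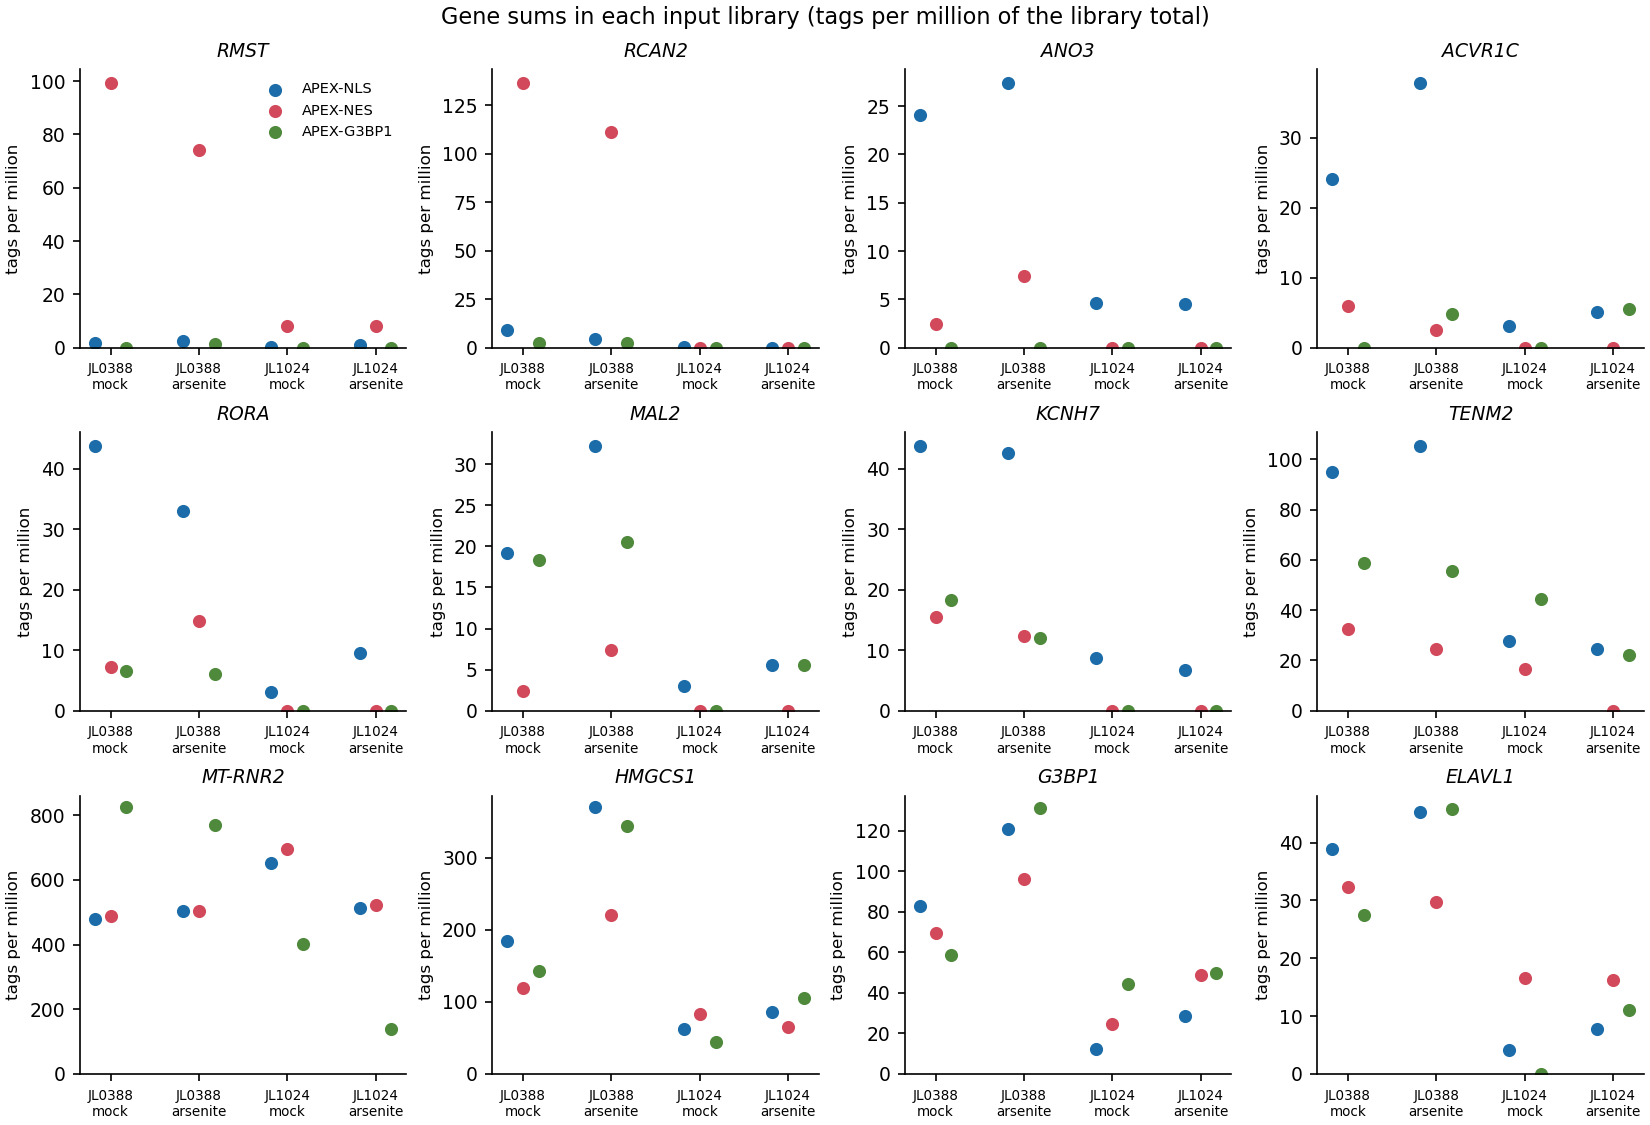
CPM in each of the 12 input libraries for 12 genes, by set and treatment on the horizontal axis; each point is 1 library, colours are lines, and each panel has its own linear axis from 0. RMST and RCAN2 stand out in the NES inputs of JL0388, ANO3 in the NLS inputs, and MT-RNR2 is highest in G3BP in JL0388 and lowest in G3BP in JL1024.

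MT-RNR2, the mitochondrial 16S ribosomal RNA, gave opposite differences in the sets. In JL0388 it was at 826 and 771 CPM in G3BP, 489 and 502 in NES and 478 and 502 in NLS. G3BP minus NES was 0.69 ± 0.06 (SE, limma adjusted p = 2.92e-06), and no other line overlapped it. In JL1024 it was at 400 and 138 in G3BP, 694 and 522 in NES and 651 and 513 in NLS. The G3BP values there come from 34 tags in all. In the 5 G3BP inputs of the set without NLS and NES, MT-RNR2 was at 235.6 CPM pooled (604 tags, tags in 5 of 5). That lies below the G3BP values of JL0388, but that set holds no other line to compare. MT-TF, the mitochondrial phenylalanine tRNA, and CCDC200 turned in the same way. Tags on CCDC200 lay in peaks of the class ncRNA, and its largest peak lies outside the RefSeq gene of that name, so the gene that gave them is uncertain.

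JL1024 shares no library with JL0388 and was used to look at the called genes again. Of the 72 genes called for NLS against NES, 69 had at least 10 tags in the 4 JL1024 libraries of the pair, and 34 of them (49.3%) had the JL0388 direction there. Over all tested genes with that many tags it was 51.7% (2055 of 3978). For G3BP against NES 16 of 43 (37.2%) did, beside 50.7% of all, and for G3BP against NLS 13 of 43 (30.2%), beside 49.1%. Scaled to tags in peaks the shares were 49.3%, 48.8% and 39.5%, beside 51.8%, 51.5% and 49.7%. Among called genes that differed 2-fold or more in JL0388, by library total, the shares were 51.7% (15 of 29), 57.9% (11 of 19) and 41.7% (5 of 12) for the 3 pairs. Scaled to tags in peaks they were 51.7%, 63.2% and 50%. With at least 50 tags instead of 10, by library total, called genes kept it in 22 of 54, 2 of 14 and 9 of 35, beside 50.04%, 37.04% and 44.02% of all genes, and those of 2-fold or more in 4 of 15, 2 of 3 and 1 of 4. Of the 2-fold genes for NLS against NES with at least 10 tags, 11 of 15 higher in NLS and 4 of 14 lower kept it. Of all called genes for G3BP against NLS with at least 10 tags, 9 of 15 higher in G3BP and 4 of 28 lower kept it. Over all tested genes of that pair it was 67.4% of the higher and 33.8% of the lower. By library total, JL1024 thus leaned to G3BP for called and other genes alike. Single genes repeated the direction: pooled over both treatments of JL1024, G3BP over NLS was 4.95 for BICC1 (95% counting interval 2.92 to 8.01), 5.35 for GLIS3 (3.15 to 8.71), 3.18 for MIR548XHG (2.02 to 4.82) and 2.42 for GPC6 (1.83 to 3.15). The G3BP tags behind these ratios came almost wholly from the arsenite input (20 of 21, 21 of 21, 25 of 26 and 60 of 62). With mock GLIS3 had 0 G3BP tags, and GPC6 was lower in G3BP (89.0 CPM, 2 tags) than in NLS (119). NES over NLS was 2.81 for ANKRD1 (1.22 to 5.71), with 0 NES tags in mock, and NES over G3BP was 6.05 for RNA5S4 (2.13 to 23.7). RNA5S4 was also called higher in NES than in NLS in JL0388 (limma adjusted p = 0.0138), but in JL1024 NLS held 232 and 161 CPM against 182 and 57.1 in NES. IGF1R ran the other way, with NLS over G3BP at 0.304 (0.165 to 0.613), as did CCDC200 and MT-TF. For the named genes the tags counted in the higher line were set against those expected from JL0388. Those genes were picked for large differences in JL0388, which also gave the expected tags. A ratio below that of all genes can therefore come from the choice alone. Of 15 NLS-high genes the median ratio of counted to expected was 0.476, beside 0.608 over 5279 genes, and 11 of 15 lay below that. Of 7 NES-high genes with at least 4 expected tags it was 0.540, beside 0.688 over 1099 genes, and of 8 G3BP-high genes 0.969, beside 0.789 over 1181.

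**Figure D4:**
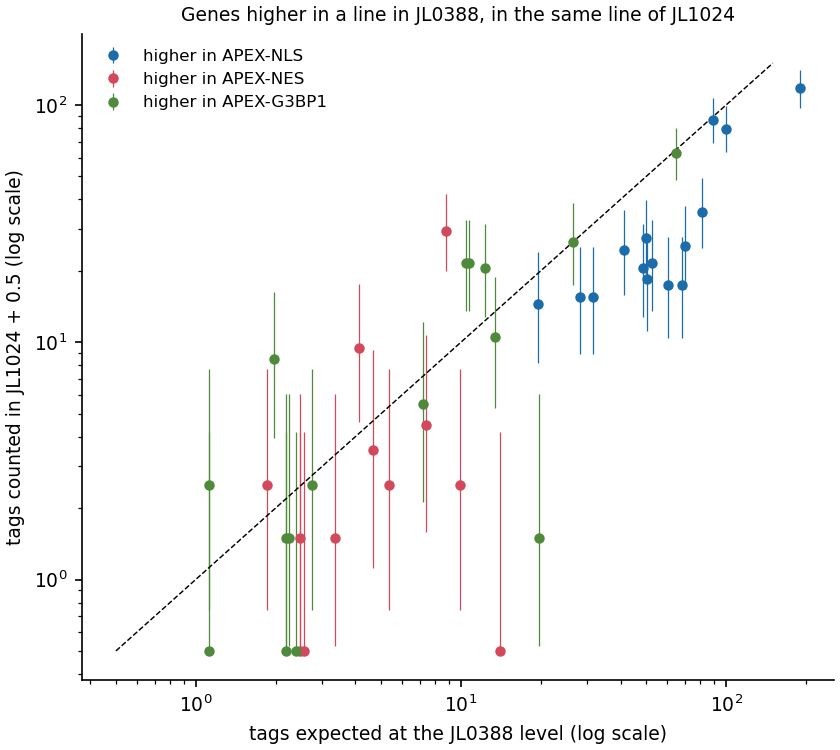
Tags counted in JL1024 (plus 0.5, log scale, with 95% Poisson intervals) against tags expected from the JL0388 level scaled by tags in peaks (log scale), for named genes in the line in which they were higher in JL0388; the dashed line marks equality. Most NLS-high genes lie below the line, and RCAN2, with 14.01 expected tags and 0 counted, is the lowest NES point to the right.

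Libraries outside the 12 inputs give the same genes in other material. ANO3 had 31 tags in the 4 captured NLS libraries of JL0388 (48.0 CPM, tags in 4 of 4), 0 in the captured NES libraries and 0 in the captured G3BP libraries of that set. ACVR1C had 17 tags in captured NLS, 1 in captured NES and 0 in captured G3BP libraries there. RMST had 4 tags in captured NES (19.7 CPM), 1 in NLS and 0 in G3BP, and RCAN2 had 5, 2 and 0. The captured libraries of JL1024 did not repeat this order for 3 of these 4 genes. There RMST had 0 tags in NES, 1 in NLS and 0 in G3BP, RCAN2 had 3, 0 and 4, and ACVR1C had 0, 6 and 7, while ANO3 had 1 in NES, 12 in NLS (6.40 CPM) and 4 in G3BP (2.74 CPM). The captured libraries are selected by labelling, so these are counts, not levels to set against the inputs. They also differ in depth. Within JL0388, 1 tag was 1.55 CPM over the captured NLS libraries and 4.94 over the captured NES libraries. Over captured G3BP, 16 tags of MT-RNR2 were 117.5 CPM. The 0 tags of RMST, RCAN2 and ACVR1C in captured G3BP of JL0388 thus do not place G3BP below the other lines. In the 5 G3BP inputs of the set without NLS and NES, ANO3 had 19 tags (7.41 CPM) and ACVR1C 26 (10.1 CPM), where the G3BP inputs of JL0388 had 0 and 4. In 12 nuclear and cytoplasmic fraction libraries of unmodified cells, pooled values were 2.51 for RMST, 7.11 for RCAN2, 5.6 for ANO3, 4.31 for ACVR1C and 22.8 for MAL2. RMST and RCAN2 in those cells were nearer to the NLS and G3BP inputs of JL0388 than to its NES inputs.

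The 134 genes called in any pair of JL0388 differed in make-up from the genes tested. Their median was 488.5 tags and 96.5 peaks, against 100 tags and 31 peaks over all 5279, so deeper genes were called more often. Non-coding RNA peaks held most tags in 25.4% of called genes and 10.9% of all. Genes read mostly in introns were 52.2% of called and 56.4% of all, and those read mostly in 3′UTRs 14.9% and 25.9%. Sums over 3′UTR peaks alone gave 0 of 2133 genes for any line difference in JL0388 (0%, 196 with an unadjusted p below 0.05; edgeR 9; 107 without the NES mock input), and sums over intron peaks 41 of 3261 (1.26%; edgeR 94). The intron count was 4 without the NES mock input, 5 without NES arsenite, 19 without NLS mock, 23 without NLS arsenite, 88 without G3BP arsenite and 122 without G3BP mock. The median RefSeq gene length of the called genes was 157 kb, against 69.6 kb.

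Groups of genes were described by counts and medians in JL0388. Of 412 genes in 24 lists 186 were tested, and 10 (5.38%) were called in at least 1 pair, beside 2.54% of all genes. No list had more than 2 called members, and 12 of the 21 lists with tested members had none. Among cholesterol and lipid synthesis genes 2 of 18 were higher in NLS than in NES and none lower, HMGCS1 and INSIG1. The list's median for NLS minus NES was 0.37, beside 0.06 over all genes. For G3BP minus NES it was 0.42, beside 0.02, and for G3BP minus NLS -0.13, beside -0.05. By these medians the list was lower in NES than in both other lines. HMGCS1, the HMG-CoA synthase of the sterol pathway, was at 184 and 370 in NLS, 119 and 220 in NES and 142 and 345 in G3BP. In JL1024 it was at 62.2 and 86.3 in NLS and 82.7 and 65.2 in NES, so the order held with arsenite and not with mock.

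Stress lists were read beside the 2.54% of all genes called, a share at which lists of this size hold few or no called members. Of 22 tested stress granule genes, 0 were called in any pair (medians 0.04 for NLS minus NES, 0.09 for G3BP minus NES and -0.01 for G3BP minus NLS, beside 0.06, 0.02 and -0.05 over all genes). Of 10 NRF2 target genes of the oxidative stress response 1 was called, ME1, the cytosolic malic enzyme, lower in NLS (83.4 and 89.3) than in NES (138 and 156) and G3BP (136 and 145). The NRF2 list's median was -0.48 for NLS minus NES and 0.24 for G3BP minus NLS. None of 4 integrated stress response genes (median 0.45 for NLS minus NES) and none of 11 heat shock genes (median 0.04) was called. Among 9 immediate early genes ZFP36L1, an RNA-decay factor that binds AU-rich elements, was lower in G3BP (7.84 and 24.1) than in NES (22.8 and 59.4; limma adjusted p = 0.0314, edgeR adjusted p = 0.0644), and that list's median was -0.55 for G3BP minus NLS. Of 17 HuR target genes of cell cycle and survival only CTNNB1, which encodes β-catenin, was called, at 166 and 269 in G3BP, 216 and 376 in NES and 252 and 331 in NLS. Interferon-stimulated genes had no member tested in JL0388.

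Of the tested genes of 3 liver lists, 2 were called, beside 2.54% of all genes. AFP, the fetal liver plasma protein, was the 1 called of 10 plasma protein genes, at 367 and 300 in G3BP against 253 and 242 in NES. The plasma protein list had medians of 0.61 for NLS minus NES and 0.40 for G3BP minus NES, beside 0.06 and 0.02 over all genes. ALB, serum albumin, was at 74.7 and 34.9 in NLS, 35.96 and 19.8 in NES and 34.0 and 24.1 in G3BP, and NLS against NES passed edgeR (adjusted p = 0.0474) and not limma (adjusted p = 0.102). APOB, the core protein of very low density lipoprotein, was the only tested apolipoprotein and was lower in G3BP (45.7 and 73.6) than in NES (71.9 and 136; -0.76 ± 0.17, limma adjusted p = 0.0394). In JL1024 the APOB difference turned (44.5 and 33.2 against 8.27 and 24.5, of 1 to 6 tags). None of 8 liver transcription factor and enzyme genes was called. NEAT1, the scaffold RNA of paraspeckles, was the 1 called of 7 nuclear long non-coding RNAs, at 201 and 151 in NLS, 285 and 262 in NES and 247 and 213 in G3BP. GAS5, a snoRNA host, was the 1 called of 7 hosts, lower in NLS (135 and 90.6) than in NES (192 and 166). No member was called among 16 ribosomal protein genes, 8 proliferation genes, 17 nuclear transport genes, 14 cytoskeletal genes and 2 histone genes.

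Most markers of other cell types were at or near 0, with SOX9, VIM and RGS5 as the exceptions. Endothelial markers had 8 tags over the 12 libraries, with 4 of 7 genes at 0 (CDH5, KDR, TEK and LYVE1), and leukocyte markers 15 tags, with 5 of 7 at 0. Collagens COL1A1 and COL1A2, PDGFRB, ACTA2, DCN and LUM had no tags, and of the fibroblast list VIM and RGS5 carried 210 of 211 tags. The summed level of that list in JL0388 was 21.0 to 31.8 in NLS, 24.0 to 59.4 in NES and 14.4 to 22.9 in G3BP. Cholangiocyte markers KRT7, KRT19 and SPP1 were at 0, and SOX9 carried 169 of 190 tags. The summed cholangiocyte level in JL0388 was 10.5 to 24.8 in NLS, 16.8 to 22.3 in NES and 10.5 to 13.3 in G3BP. No tested member of these lists was called.

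Shares of tags by annotation class were nearly equal between lines in JL0388. Introns held 48.0, 48.9 and 49.98% of tags in peaks with mock in NLS, NES and G3BP, and 42.6, 44.0 and 43.5% with arsenite. 3′UTRs held 17.1, 17.0 and 15.5% with mock, and 24.1, 23.0 and 23.6% with arsenite. Both classes differed more between treatments than between lines. Non-coding RNAs held 14.4, 14.1 and 14.1%, and 12.7, 13.0 and 12.5%. In JL1024 the lines were apart: non-coding RNAs held 29.8, 23.8 and 18.9% with mock and 22.6, 18.0 and 12.4% with arsenite, in the order NLS, NES, G3BP both times, while introns held 27.1, 34.3 and 33.2%, and 30.3, 34.2 and 39.9%. The 95% Wilson intervals of the 3 lines did not overlap for non-coding RNAs with either treatment in JL1024, but they cover counting error only.

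Over the 4 strata no class passed. Non-coding RNAs averaged 19.9 ± 7.91% in NLS, 17.3 ± 4.90% in NES and 14.5 ± 3.04% in G3BP (SD, n = 4; exact permutation test over 1296 orders of the line labels, two-sided, p = 0.0185, adjusted p = 0.185 over 10 classes). G3BP was below NLS in 4 of 4 strata by 5.42 points on average, of which the JL0388 strata gave 0.260 and 0.273. Introns averaged 37.0 ± 9.90, 40.3 ± 7.35 and 41.6 ± 7.01% (exact permutation p = 0.037, adjusted p = 0.185). 3′UTRs averaged 17.8 ± 5.11, 18.7 ± 3.27 and 19.5 ± 5.12% (exact permutation p = 0.588). With 4 strata the exact permutation test of a single pair of lines cannot go below p = 0.125. With the library total as the denominator, non-coding RNA did pass (0.589 points between the highest and lowest line, exact permutation, adjusted p = 0.0463), and it also passed without the NLS arsenite input of JL0388 (6.76 points, exact permutation, adjusted p = 0.0463).

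**Figure D5:**
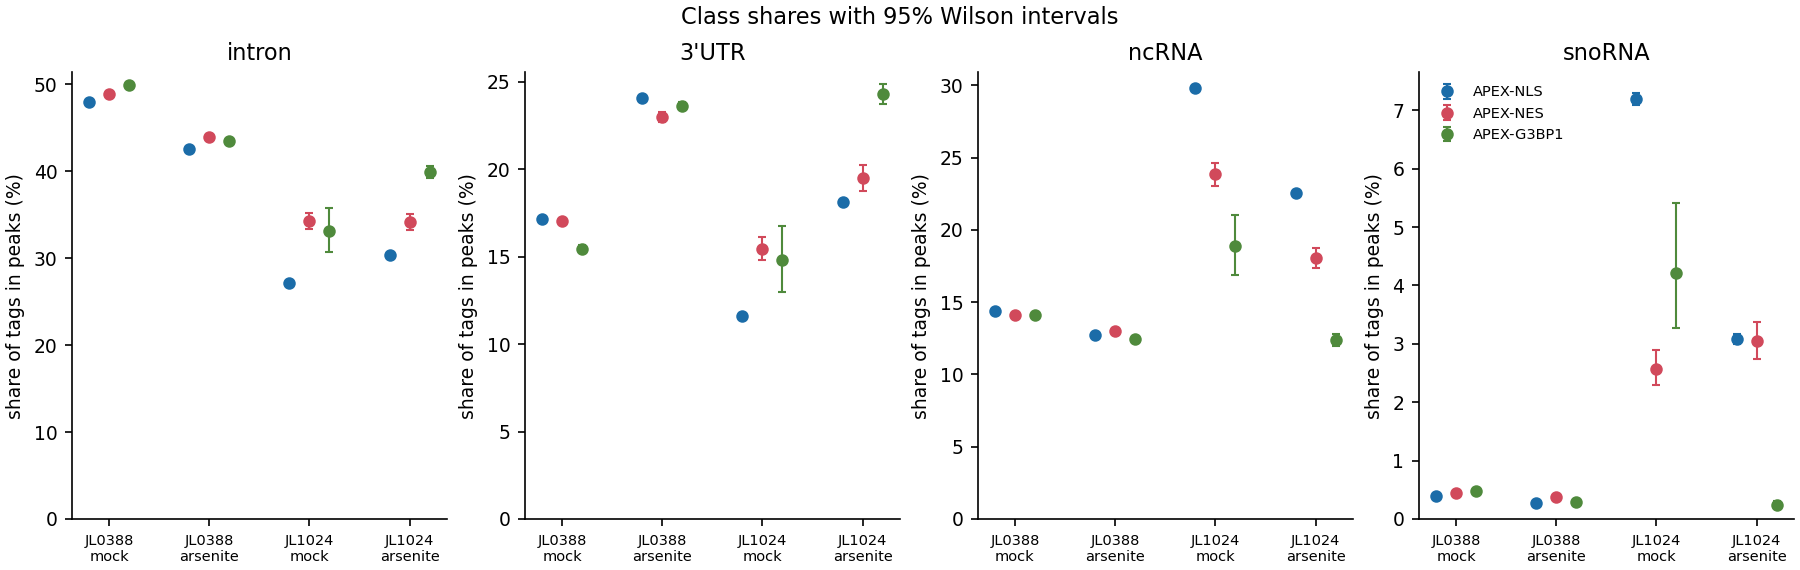
Share of tags in peaks (%) that lie in introns, 3′UTRs, non-coding RNAs and snoRNAs in each of the 12 inputs, by set and treatment, with 95% Wilson intervals of counting error; colours are lines. The lines lie close together in JL0388, and in JL1024 the non-coding RNA share runs from NLS down to G3BP with both treatments.

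The library set was the covariate with the most called genes. JL1024 differed from JL0388 at 4537 of 5883 genes (77.1%), of which 4446 were lower in JL1024. The count moved with the scaling: scaled to tags in peaks 1680 genes were called, 1570 of them lower, and edgeR called 832, 387 of them lower. Centring each library on its median, which shifts all its genes alike, left 282, 1 of them lower. Arsenite against mock gave 0 genes over both sets (0%, 470 with an unadjusted p below 0.05; edgeR 100) and 252 of 5279 within JL0388 (4.77%, limma). The interaction of line and treatment called 2 genes (0.034%), MALAT1 and CALCRL-AS1; edgeR called 0. MALAT1, a nuclear long non-coding RNA, was at 1654 and 1159 CPM in G3BP of JL0388, 1582 and 1591 in NES and 1330 and 1285 in NLS. In JL1024 the G3BP mock input stood at 89.0, from 2 tags, and without that library no gene passed. Without the G3BP mock input of JL0388, 821 genes did.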

How the data were processed

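Members and gene lists were chosen with earlier results of these data known. The authors deposited 1 table of 20-base HuR peaks with the signal of each library in each peak, as tags divided by the library total. Per the submitters' processing notes the tools were Bowtie2, SAMtools, bedtools and HOMER and the build GRCh38.p14; other settings are not given in the sources used here. Each column is a whole multiple of its smallest value (100% of values), so whole tags were recovered. Of 395471 lines 8257 repeat another and were dropped, which left 387214 peaks, 332748 with tags in the 12 inputs (1793747 tags, 15000 genes). Peak annotations are the authors'.

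Gene sums with at least 30 tags and tags in at least 4 libraries were tested on log2 of tags per 1000000 of the library total (CPM) plus a pseudocount of 1.26 (1.20 within JL0388), with limma 3.58.1 (trend, eBayes; line, set and treatment; 7 residual degrees of freedom) in R 4.3.3 and Benjamini-Hochberg adjustment over all tested genes. Fold changes on this scale understate those of low genes. edgeR 4.0.16 on the recovered tags (quasi-likelihood, TMM) was an alternative, and both were tested on simulated data. Class shares were compared by exact permutation of line labels within the 4 strata. In NLS and NES the replicate number of a title names the library set, so the set term is also the block; deviations of same-numbered NLS and NES libraries correlated at 0.394 (mock) and 0.350 (arsenite). Named genes are, per pair, up to 8 each way with the largest log2 difference among called genes of 1 direction in all strata (where none passed, 3 each way by unadjusted p), up to 4 members per list, G3BP1 and ELAVL1. The same rule was applied within JL0388 after the values were seen; 1 gene it gives is not reported here. RefSeq positions matched 121 of 131 named genes. Counting intervals are exact at 95% and, like a floor of 3 tags, cover counting error only. Packages in Python were numpy, pandas and scipy.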

Additional observations from a re-analysis of the deposited data

Results flagged for a closer look

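In 33 groups of 4 libraries of a line (10 class shares and the share of tags in peaks), 1 library stood apart in 2, where chance gives about 1 in 20. In the G3BP line the snoRNA share was 4.21% in the mock input of JL1024, from 57 tags, against 0.237 to 0.486% in the other 3 (a gap of 0.937 of the range), and the unannotated share was 17.5% there against 11.9 to 12.1% (0.965 of the range). Both are the library with 1353 tags in peaks.

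Of 94 differences between lines compared between sets, 14 ran one way in both treatments of JL0388 and the other way in both of JL1024; these opposite directions were not tested. Among class shares, averaged over the strata, they were 3′UTR for NLS minus NES (-0.982 points) and G3BP minus NLS (1.79), CDS (-0.0726) and downstream 10K (0.0828) for G3BP minus NLS, and snoRNA for NLS minus NES (1.13) and G3BP minus NLS (-1.43). The share of tags in peaks for NLS minus NES was another (0.252 points).

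Among genes, the JL1024 difference in CPM, averaged over treatments and opposite to JL0388, was 1.22 for FSTL1 (NLS minus NES, from 5 tags in NLS and 0 in NES). It was 19.6 for RALYL and 22.5 for APOB (G3BP minus NES). For MT-RNR2 it was -339 (G3BP minus NES) and -313 (G3BP minus NLS), for CCDC200 -1045 and for MT-TF -70.5 (both G3BP minus NLS). The G3BP inputs of JL1024, with 1353 and 21506 tags, enter all but FSTL1; the part of depth in these reversals was not tested.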

How the results depend on the processing

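Over both sets, as reported, 0, 1 and 1 genes were called for NLS against NES, G3BP against NES and G3BP against NLS, 2 for the interaction, 0 for 3′UTR sums and 1 for intron sums. A pseudocount 4 times larger left 0 for both G3BP pairs, the interaction and intron sums; 4 times smaller gave 4 (G3BP against NLS), 4 (interaction), 4 (3′UTR) and 2 (intron). No filter, and tags required in all libraries, each gave 0 for both G3BP pairs, the interaction and introns, and the latter left 288 genes for set. Scaling to tags in peaks gave 4 (G3BP against NLS), 1680 (set), 11 (3′UTR) and 4 (intron), and centring 1 (NLS against NES), 0 (G3BP against NLS), 282 (set, 281 of them higher in JL1024, the opposite of the 4446 of 4537 lower as reported), 0 (interaction) and 0 (intron). edgeR called 16, 6 and 57 for the pairs, 832 (set), 100 (treatment), 0 (interaction), 1 (3′UTR) and 13 (intron). Within JL1024 the G3BP pairs gave 2 and 24 and introns 2; within mock the pairs gave 4, 3 and 5; within arsenite the G3BP pairs gave 33 and 2, 3′UTRs 2 and introns 8. The replicate block (the 8 NLS and NES libraries, paired by number) gave 0 for NLS against NES, and no replicate block gave 0 for the 3 pairs, the interaction and introns; it changed no other call.

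Within JL0388 the pairs gave 72, 71 and 43, treatment 252 and introns 41. There edgeR gave 111, 46, 111, 9 (3′UTR) and 94 (intron), a larger pseudocount 3 (3′UTR) and 82 (intron), and G3BP against NES fell to 37 with a smaller pseudocount, 36 without a filter and 36 scaled to tags in peaks, where G3BP against NLS gave 28. Chosen after seeing the data, besides the counts within JL0388, array weights gave 85, 29 and 70 for the pairs, 488 (treatment), 0 (interaction), 34 (3′UTR) and 88 (intron), and edgeR without the G3BP mock input of JL1024 gave 17, 3, 25, 825 (set), 120 (treatment), 0, 1 and 25. Leaving out 1 library each gave 0 to 3, 0 to 1 and 0 to 5 for the pairs, 3704 to 4817 (set), 0 to 0 (treatment), 0 to 821 (interaction), 0 to 2 (3′UTR) and 0 to 2 (intron). Within JL0388 it gave 30 to 341, 46 to 362 and 17 to 134, 125 to 347 (treatment), 0 to 107 (3′UTR) and 4 to 122 (intron). The lowest came without NLS arsenite, G3BP arsenite and NLS mock for the pairs, and NES mock for introns. The spread of the non-coding RNA share was 3.94 to 6.76 points without 1 library and 0.589 of the library total. For the differences of single named genes, 810 values under alternatives kept direction and side of the threshold, 145 lost the call and 10 gained it. The cause was not tested. Depth limits the NES and G3BP lines of JL1024, and line and library cannot be told apart within 1 set.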
